A study of Sus scrofa with 8 samples.

Results

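Genes of the endothelin, nitric oxide and angiotensin systems were followed in the lung of Tibetan and Duroc pigs kept at high or low altitude. The members were 9 genes taken by name: EDN1, ECE1, EDNRA and EDNRB of the endothelin system, NOS3 and NOS2 of nitric oxide synthesis, and ACE, AGTR1 and AGTR2 of the angiotensin system. A probe was counted as a member when its symbol, read from the RefSeq accession of the array design or from the study's gene tables, was one of these names. By this rule 7 of the 9 genes were found with 10 probes, and 9 of these probes passed the filter of a signal well above background on 1 or more arrays, of 34406 such probes on the array. Most of the 34406 probes had no symbol here, and those with a symbol belonged to 3822 genes. No probe was named ECE1 or AGTR2 by the rule, and these genes were not analysed here. A second NOS2 probe was well above background on 0 of the 8 arrays and was left out.

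Endothelin-1, the product of EDN1, is released mainly by endothelial cells and constricts pulmonary arteries through the type A receptor on smooth muscle, while the type B receptor on endothelium clears the peptide and triggers release of nitric oxide and prostacyclin. Nitric oxide made by endothelial NOS3, or by inducible NOS2 in inflamed tissue, relaxes vascular smooth muscle through soluble guanylate cyclase and cGMP. ACE, which is abundant on the lung capillary endothelium, converts angiotensin I to angiotensin II and degrades bradykinin, and angiotensin II constricts vessels through the type 1 receptor encoded by AGTR1. These systems are known for their part in the rise of pulmonary pressure under hypoxia.

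TH were Tibetan pigs raised at 3500 m, TL were Tibetan pigs born there and moved to 40 m at 1 month of age, DL were Duroc pigs raised at 40 m, and DH were Duroc pigs born there and moved to 3500 m at 1 month. All were females, and lung was taken at 6 months of age. RNA of 2 pigs per group was hybridized to 8 Agilent 1-color arrays, 1 pig per array according to the methods. Lung tissue was measured whole, so that fewer cells of a type and less RNA per cell cannot be told apart.

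The values are the deposited log2 values. The arrays of the same group correlated at r = 0.981 to 0.994, the TH, DH and DL arrays correlated between groups at 0.961 to 0.967, and the TL arrays correlated with the others at 0.918 to 0.941. The TL arrays also stood apart by brightness, with 31641 and 31723 probes well above background against 26466 to 29319 on the other arrays. No spot was saturated. For probes with repeat spots, the median difference between spots was 0.051 on the log2 scale within an array and 0.045 to 0.055 between the 2 arrays of a group. The p-values therefore measure a spread between arrays that was about as small as that between spots. Levels of different probes are not comparable, and no probe is set against another below.

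Slide 1 held the arrays of TH and DL, and slide 2 held those of DH and TL. Slide 2 thus held all pigs moved at 1 month, and slide 1 all pigs that were not moved. The interaction is therefore also the contrast between slides and between moved and unmoved pigs, and cannot be told apart from either. With slide as a block in place of the interaction, the breed and altitude effects had the same values and calls. That match was fixed by the layout and tests nothing about the slide. The 2-way model of breed, altitude and interaction was fitted by limma to all 34406 probes, and a value was called at an FDR below 0.0001, the threshold of the study. Effects and differences are on the log2 scale. A breed effect is the Tibetan mean minus the Duroc mean and an altitude effect the mean at 3500 m minus that at 40 m. The interaction is the TH minus TL difference less the DH minus DL difference.

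Most of the member probes were called lower in Tibetan than in Duroc lung. All 8 probes named by an accession had a negative breed effect, and 6 of them were called lower, belonging to EDN1, EDNRA, EDNRB, NOS3, NOS2 and ACE. Of all tested probes 14.6% were called lower for breed and 12.8% higher, and among the 2478 tested probes named by an accession 19.3% were called lower. The median breed effect was -0.93 over the 8 member probes, -0.11 over the probes named by an accession and -0.07 over all tested probes. In 6 of the 8 probes all 4 Tibetan arrays lay below all 4 Duroc arrays, which held for 14.4% of all tested probes. The TL arrays enter the breed effect, and for ACE it was made up of a TH minus DH difference of -0.44, which was not called, and a TL minus DL difference of -2.24. The probe of AGTR1 was named only by a table of the study that, in the form used here, lists probes in order of their breed p-value, so its breed difference is given as a description with no test.

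**Figure D1:**
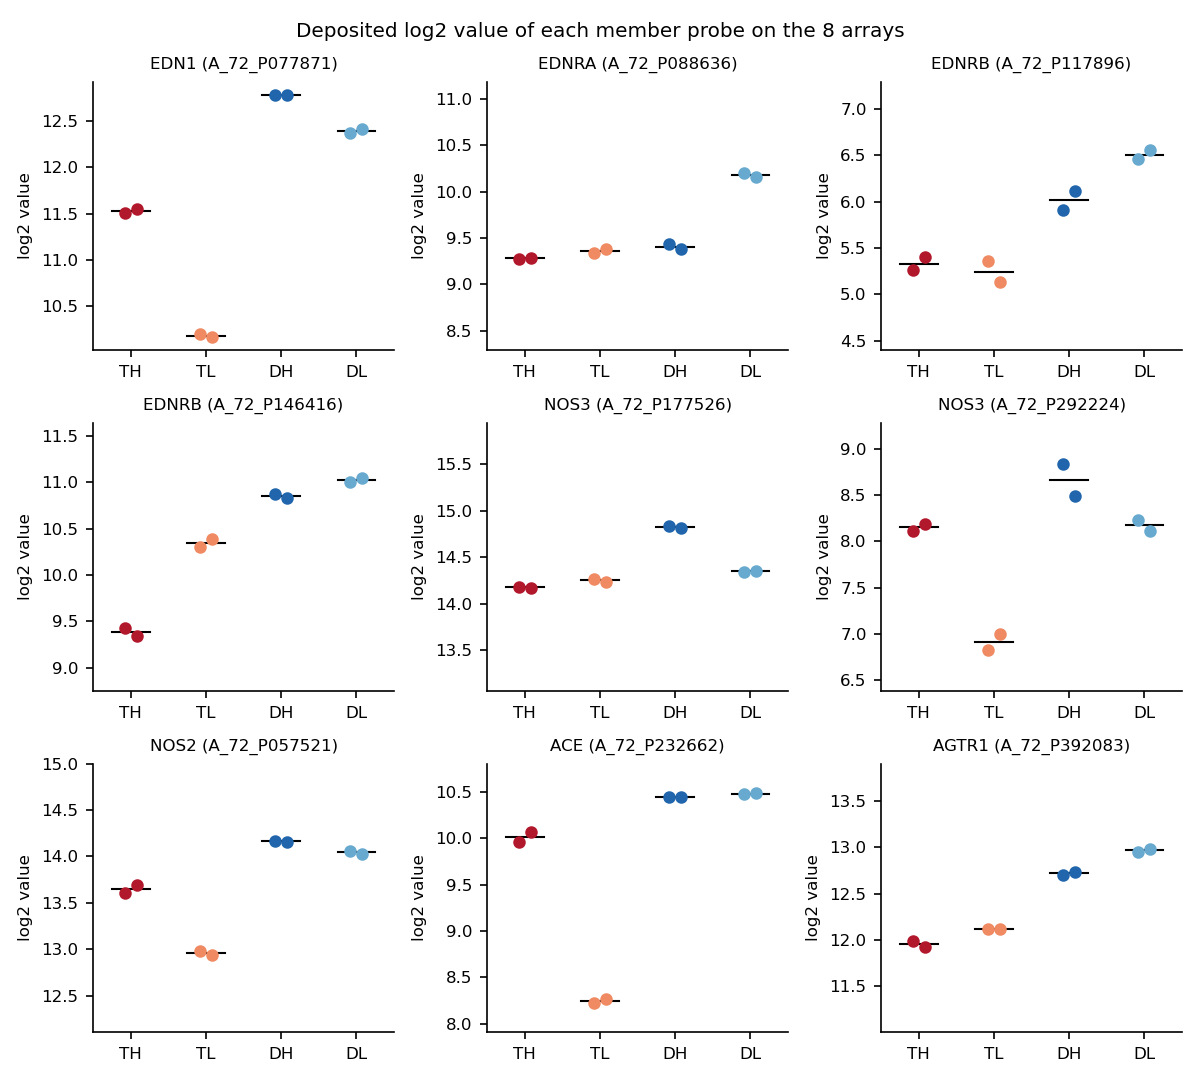
Deposited log2 value (vertical axis, the same span of 2.9 log2 units in every panel) of the 9 member probes on the 8 arrays, by group (horizontal axis). Points are arrays and bars are means of 2 arrays. No group mean of TH or TL is the highest of a panel, and TL lies far below the other groups for EDN1, ACE and the NOS3 probe A_72_P292224.

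EDN1, the ligand, had the largest breed effect of the members. Its values were 11.51 and 11.55 in TH, 10.20 and 10.17 in TL, 12.78 and 12.78 in DH, and 12.37 and 12.41 in DL. Every Duroc array was above every Tibetan array, and both TL arrays were the lowest. The breed effect was -1.73 ± 0.02 (SE; adjusted p = 1.61e-06), a level 3.32-fold lower in Tibetan pigs. EDN1 was lower in TH than in DH by a difference of -1.25 ± 0.03 (adjusted p = 1.24e-05) and lower in TL than in DL by -2.21 ± 0.03 (adjusted p = 6.03e-07). Its altitude effect was 0.87 (adjusted p = 5.52e-06), made up of 1.35 ± 0.03 for TH minus TL (adjusted p = 2.01e-06) and 0.39 ± 0.03 for DH minus DL, which was not called (adjusted p = 3.23e-04). The interaction was 0.96 ± 0.04 (adjusted p = 2.38e-05). In descending order the groups were DH, DL, TH and TL, and of the neighbors only DH and DL were not called different.

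EDNRA, the constrictor receptor of smooth muscle, was set apart by the DL group. The EDNRA probe gave 9.28 and 9.29 in TH, 9.33 and 9.38 in TL, 9.44 and 9.38 in DH, and 10.20 and 10.16 in DL. The values of TL and DH overlapped, and both DL arrays were higher than all others. DH was lower than DL by -0.77 ± 0.03 (adjusted p = 5.68e-05), a 1.71-fold lower level, and TL was lower than DL by -0.82 ± 0.03 (adjusted p = 1.31e-05). TH did not differ from TL beyond the threshold (-0.08, 95% interval -0.17 to 0.01). The breed effect of -0.47 ± 0.02 (adjusted p = 3.73e-05) and the altitude effect of -0.42 ± 0.02 (adjusted p = 5.62e-05) were both called, and the interaction of 0.70 was not (adjusted p = 1.10e-04).

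EDNRB, the clearing receptor, was measured by a bright and a dim probe. The bright probe A_72_P146416 gave 9.43 and 9.34 in TH, 10.30 and 10.39 in TL, 10.87 and 10.83 in DH, and 11.01 and 11.04 in DL. Both TH arrays were the lowest, and TL lay between TH and the Duroc groups. The breed effect was -1.07 ± 0.03 (adjusted p = 7.55e-06) and the altitude effect was -0.57 ± 0.03 (adjusted p = 6.19e-05). TH was lower than TL by -0.96 ± 0.05 (adjusted p = 2.33e-05), a direction opposite to that of EDN1, and lower than DH by -1.46 ± 0.05 (adjusted p = 2.36e-05). DH minus DL was -0.18 and was not called (adjusted p = 0.0251).

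The dim EDNRB probe A_72_P117896 was well above background on 1 TH, 2 TL, 1 DH and 2 DL arrays. It gave 5.26 and 5.40 in TH, 5.36 and 5.13 in TL, 5.91 and 6.12 in DH, and 6.45 and 6.56 in DL. Here too every Tibetan array was below every Duroc array, with a breed effect of -0.97 ± 0.08 that was not called (adjusted p = 2.26e-04). The probes disagreed on TH and TL, since the dim probe gave a TH minus TL difference of 0.09 with a 95% interval of -0.21 to 0.38, and this value turned negative under other scalings (-0.13 and -0.11).

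NOS3, the endothelial nitric oxide synthase, had its highest level in DH. The bright probe A_72_P177526 gave 14.18 and 14.17 in TH, 14.27 and 14.24 in TL, 14.84 and 14.81 in DH, and 14.34 and 14.35 in DL. Both DH arrays were above all others, and the remaining 3 groups lay within a narrow span without overlap. DH was higher than DL by 0.48 ± 0.02 (adjusted p = 8.62e-05), a 1.39-fold higher level, while TH minus TL was -0.08 (adjusted p = 0.0362). The breed effect was -0.37 ± 0.02 (adjusted p = 2.82e-05) and the interaction was -0.56 ± 0.03 (adjusted p = 7.67e-05). The interaction depended on the scaling. With the processed signal scaled to the 75th percentile, TH minus TL was 0.59 (adjusted p = 9.96e-06) and the interaction was 0.02 (adjusted p = 0.696), against a median interaction over all tested probes that moved from 0.21 to 0.33, and the breed effect grew to -0.70.

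The dim NOS3 probe A_72_P292224 gave 8.11 and 8.18 in TH, 6.83 and 7.00 in TL, 8.83 and 8.49 in DH, and 8.23 and 8.11 in DL. TH and DL overlapped, both TL arrays were the lowest, and both DH arrays were the highest. None of its effects was called. They were -0.88 ± 0.09 for breed (adjusted p = 5.48e-04), 0.86 ± 0.09 for altitude (adjusted p = 6.23e-04) and 0.75 ± 0.18 for the interaction (adjusted p = 0.0152). DH minus DL was 0.49 with this probe and 0.48 with the bright probe, whereas TH minus TL was 1.23 with this probe and -0.08 with the bright probe.

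NOS2, the inducible synthase, was low in TL. Its probe gave 13.61 and 13.70 in TH, 12.98 and 12.93 in TL, 14.17 and 14.16 in DH, and 14.05 and 14.03 in DL. No array of a group overlapped with another group. The breed effect was -0.80 ± 0.03 (adjusted p = 1.01e-05), TL was lower than DL by -1.08 ± 0.04 (adjusted p = 7.66e-06), a 2.12-fold lower level, and TH was higher than TL by 0.69 ± 0.04 (adjusted p = 3.77e-05). The altitude effect of 0.41 missed the threshold by a small margin (adjusted p = 1.02e-04). TH minus DH was -0.51 (adjusted p = 2.95e-04) and DH minus DL was 0.12 (adjusted p = 0.0451), and neither was called.

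ACE, the enzyme that forms angiotensin II, was lowest in TL. Its values were 9.96 and 10.06 in TH, 8.22 and 8.26 in TL, 10.45 and 10.44 in DH, and 10.47 and 10.49 in DL. Both TL arrays were far below the rest, and the DH and DL arrays were close together. TL was lower than DL by -2.24 ± 0.04 (adjusted p = 1.14e-06), a 4.71-fold lower level, and lower than TH by 1.77 ± 0.04 (adjusted p = 2.19e-06), a 3.40-fold lower level. TH minus DH was -0.44 and was not called (adjusted p = 6.58e-04), and DH minus DL was -0.04 with a 95% interval of -0.14 to 0.07. The breed effect was -1.34 ± 0.03 (adjusted p = 3.31e-06), the altitude effect was 0.87 ± 0.03 (adjusted p = 1.10e-05) and the interaction was 1.80 ± 0.06 (adjusted p = 8.31e-06), the largest interaction of the members. With normexp on the local background and an offset of 50, the interaction was 0.98 and the altitude effect was 0.44, and both were still called. Over the fits with 1 array left out the interaction was 1.75 to 1.85 and the altitude effect was 0.84 to 0.89. Both calls were lost in most of these fits.

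AGTR1, the constrictor receptor of angiotensin II, was called neither for altitude nor for the interaction. Its probe gave 11.99 and 11.93 in TH, 12.12 and 12.12 in TL, 12.71 and 12.73 in DH, and 12.95 and 12.98 in DL. The groups did not overlap, and every Tibetan array lay below every Duroc array. The Tibetan mean was lower by -0.80, as a description. The altitude effect was -0.21 ± 0.02 (adjusted p = 5.85e-04) and the interaction was 0.09 (95% interval -0.03 to 0.20; adjusted p = 0.133). TH minus TL was -0.16, which was 0.14, of opposite sign, under scaling to the 75th percentile.

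**Figure D2:**
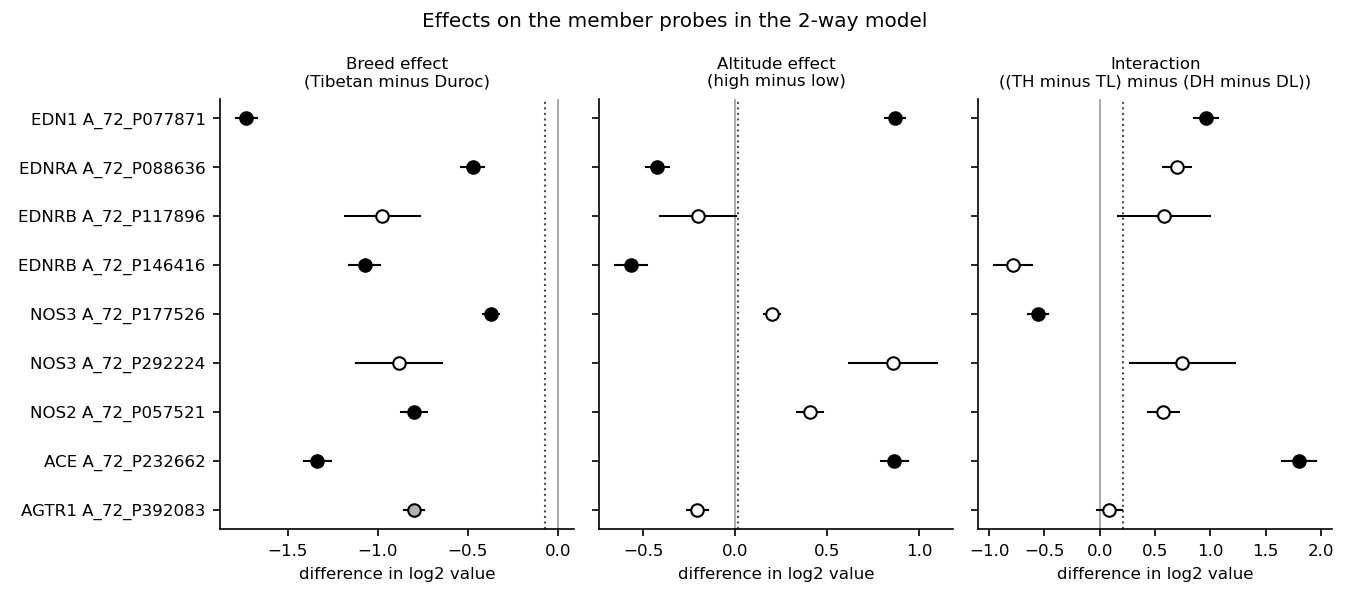
Breed effect, altitude effect and interaction (horizontal axes, difference in log2 value) of the 9 member probes with 95% intervals from the moderated fit on 8 arrays. Filled points were called at an FDR below 0.0001, open points were not, the gray point is a description with no test, and the dotted line is the median of all 34406 tested probes. All breed effects lie left of the median of -0.07, while altitude effects and interactions lie on both sides of 0.

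The 2 breeds were also compared at each altitude. Each of these comparisons sets unmoved pigs on slide 1 against moved pigs on slide 2. Neither the slide nor the move can be told apart from the difference. At high altitude 3 of the 8 accession-named member probes were called lower in TH than in DH (EDN1, EDNRB A_72_P146416 and NOS3 A_72_P177526), against 5.16% of all tested probes and 6.38% of those named by an accession. This comparison uses no TL array. With both TL arrays left out of the fit, which leaves fewer arrays to estimate the spread, the 3 differences were the same and their adjusted p rose to 1.76e-04, 2.09e-04 and 3.16e-04, so that none passed the threshold. At low altitude 5 of the 8 probes were called lower in TL than in DL (EDN1, EDNRA, EDNRB A_72_P146416, NOS2 and ACE), against 21.5% of all tested probes and 27.9% of those named by an accession.

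Within slide 1, TH was lower than DL in all 8 accession-named probes and 3 were called, EDN1 at -0.86, EDNRA at -0.90 and EDNRB A_72_P146416 at -1.64, against 7.24% of all tested probes and 8.92% of those named by an accession. None of these 3 calls remained with any 1 array or both TL arrays left out or with the replicate block. With both TL arrays left out, and with the block, 7 of the 8 probes had an unadjusted p below 0.05 in limma. So had 21666 and 21877 of all 34406 tested probes. In the same fits 269 and 247 of all tested probes were called at the threshold. For TH minus DL 1 probe was called with normexp and quantile normalization and 2 without moderation. The NOS3 probe A_72_P292224 had a TH minus DL difference of only -0.02, which was positive under scaling to the 75th percentile (0.11). Within slide 2, TL was lower than DH in all 8 probes and 4 were called, EDN1 at -2.60, NOS3 A_72_P177526 at -0.57, NOS2 at -1.21 and ACE at -2.20, against 18.8% of all tested probes and 28.7% of those named by an accession. Leaving out any 1 array left 2 or 3 probes called. For EDNRA, TL minus DH was -0.05 and turned to 0.19 under scaling to the 75th percentile.

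The altitude effect had no common direction among the members. For altitude, EDN1 and ACE were called higher at 3500 m and EDNRA and EDNRB A_72_P146416 were called lower, with background shares of 14.0% higher and 12.2% lower over all tested probes, and 26.2% and 9.85% over those named by an accession. These shares moved with the scaling, since 53.4% of all altitude calls were higher with the deposited values and 64.1% under scaling to the 75th percentile. The member calls for altitude kept their directions under every scaling tried. The call of EDNRA was lost with normexp and quantile normalization (adjusted p = 4.61e-04), without moderation, with the replicate block and with any 1 array left out, and that of EDNRB A_72_P146416 was lost under the same settings other than the normalization. The calls of EDN1 and ACE were lost only in fits with 1 array left out, in some of them for EDN1 and in most for ACE. The dim EDNRB probe was not called for altitude (-0.20, 95% interval -0.41 to 0.01).

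The altitude difference was also tested within each breed. Here again each comparison is between slides and between moved and unmoved pigs, and neither can be told apart from the altitude difference. Between TH and TL, EDN1, NOS2 and ACE were called higher in TH and EDNRB A_72_P146416 was called lower. The background was 20.5% higher and 16.6% lower over all tested probes, and 33.3% and 9.93% over those named by an accession, so that 3 of 8 higher is near the latter share. Between DH and DL, NOS3 A_72_P177526 was called higher in DH (background 5.83%, and 6.42% of probes named by an accession) and EDNRA lower (background 4.12% and 5.93%), and neither was called from the scanner signals with normexp and quantile normalization (0.49 with adjusted p = 6.82e-04, and -0.73 with adjusted p = 3.66e-04). The interaction, which tests the difference between these differences, was called positive for EDN1 and ACE (background 14.9%, and 22% of probes named by an accession) and negative for NOS3 A_72_P177526 (background 13.5% and 5.85%), and was not called for EDNRA, EDNRB or NOS2. The TL arrays, which stood apart as a whole, enter every breed effect, altitude effect and interaction and the TH minus TL, TL minus DL and TL minus DH differences, and the part of that in the results was not tested. TL was the lowest group in 5 of the 8 accession-named member probes and in 52.1% of all 2478 tested probes named by an accession.

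**Figure D3:**
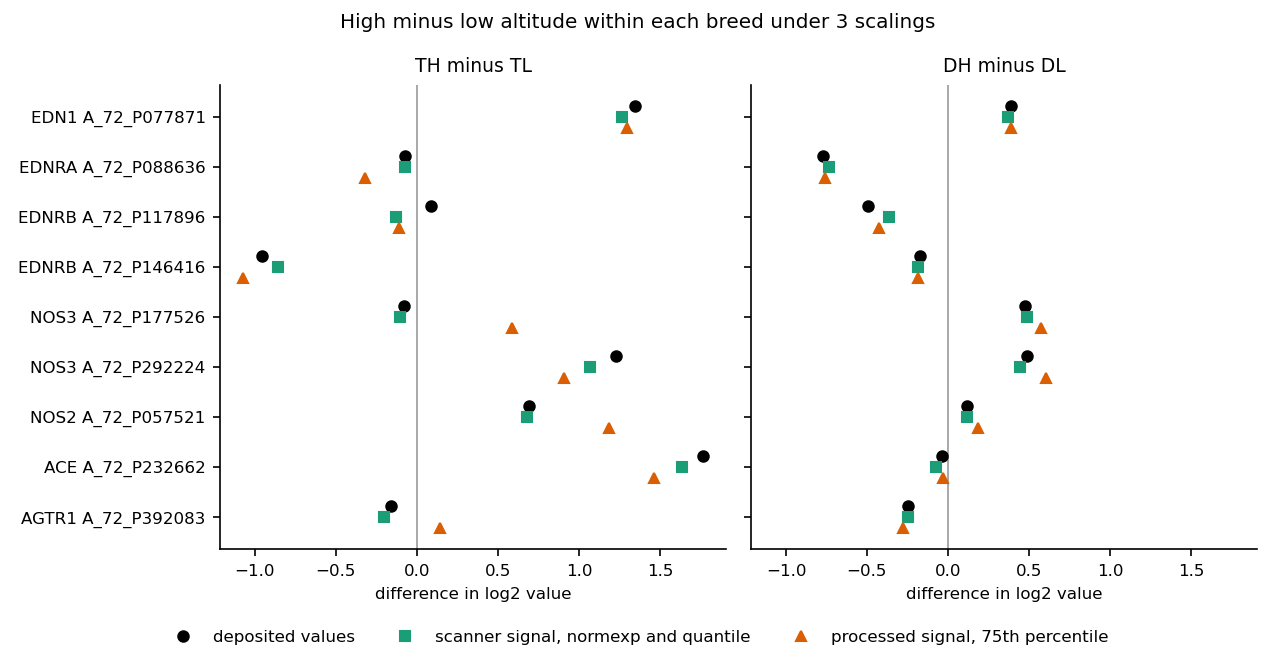
High minus low altitude difference (horizontal axis, log2 units) of each member probe within Tibetan pigs (TH minus TL) and within Duroc pigs (DH minus DL), from the deposited values and from 2 scalings of the scanner signals. The DH minus DL differences nearly coincide, while the TH minus TL differences spread most for the bright NOS3 probe, from -0.11 to 0.59.

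Likeness to a member was measured by the root mean square difference of log2 values centered over the 8 arrays. The 3 named genes with the most like profile were found among 4985 candidate probes with a symbol, all well above background on every array. For EDN1 these were ORAI1 (0.05), CIDEC (0.06) and EDN3 (0.10), the last of which encodes endothelin-3. For ACE they were NES (0.08), LOC100153094 (0.13) and TIGAR (0.14), and for AGTR1 they were DEFB1 (0.03), MXRA7 (0.06) and KBTBD3 (0.07). EDNRA was most like ESD (0.05), NEXN (0.06) and BDP1 (0.07), and EDNRB A_72_P146416 was most like CAPNS1 (0.07), FCN2 (0.11) and FIBIN (0.13). NOS3 A_72_P177526 was most like GALM (0.05), AIF1 (0.07) and ARHGAP24 (0.07), and NOS2 was most like C18H7orf73 (0.05), LOC100156940 (0.05) and AGPAT1 (0.05). The likeness over 8 arrays of 4 groups is mostly likeness of 4 group means.

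Of 6 other genes listed for the endothelin system, EDN3, KEL and MME were measured. EDN3, the ligand that prefers the type B receptor, had 2 probes named by an accession, with values of 9.31 and 9.34 in TH, 7.89 and 8.04 in TL, 10.56 and 10.64 in DH, and 10.34 and 10.44 in DL for A_72_P177856. Both TL arrays were the lowest and every Tibetan array was below every Duroc array, the order seen for EDN1. Both probes were called lower for breed (-1.85 and -1.84) and higher for altitude (0.78 and 0.73), and A_72_P296234 was called for the interaction (1.12). Another EDN3 probe, A_72_P104226, and those of KEL and MME, enzymes that process endothelins, were named only by the study's tables. Their values are a description, with breed effects of -1.18 for EDN3, 2.27 for KEL and 0.72 for MME. In that EDN3 probe TH (11.36 and 11.28) and TL (11.29 and 11.33) overlapped, below DH (12.43 and 12.43) and DL (12.56 and 12.55). KEL was high in TH (11.73 and 11.68) against TL (8.42 and 8.47), DH (8.20 and 8.24) and DL (7.38 and 7.40). The KEL interaction was 2.43.

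Of 22 other genes listed for nitric oxide and cGMP, 9 were measured with 13 probes, all named by an accession. For breed 3 probes were called higher and 1 lower, against 9.28% and 19.3% of all tested probes named by an accession. The median breed effect was 0.01. The mean of the 13 probes had a breed difference of -0.0074, so the list had no clear direction by breed. The higher probes were all of HSP90AA1, a chaperone that binds NOS3, at 0.70, 0.53 and 0.80. Its remaining probe was at 0.20 and not called. In every HSP90AA1 probe TL had the highest mean, as in A_72_P174931 with 17.12 against 15.59 to 15.73 for the other groups. The TH mean was above both Duroc means only in A_72_P325738 (16.04 against 15.79 for DH and 15.70 for DL). In A_72_P207327 the TH mean of 16.81 was below those of DH (16.88) and DL (17.04). The lower probe was that of SLC7A2, a transporter of arginine, at -0.68. For altitude, PRKG1, the cGMP-dependent kinase (-1.25), PDE3A, a phosphodiesterase (-1.08), and 2 HSP90AA1 probes (-0.83 and -0.75) were called lower and SLC7A2 higher (0.42). The interaction was called positive for PRKG1 (1.74) and negative for SLC7A2 (-0.71) and 3 HSP90AA1 probes (-1.39, -1.19 and -1.08).

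Of 11 other genes listed for the angiotensin system, 3 were measured with 3 probes named by an accession. LNPEP, an aminopeptidase that binds angiotensin IV, was called lower in Tibetan pigs (-0.67), and ENPEP, which degrades angiotensin II, was called higher (0.34) with an interaction of 0.57. The median breed effect over the 3 probes was -0.32.

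Of 19 genes listed for kinins, natriuretic peptides, adrenomedullin and prostanoids, 10 were measured with 11 probes named by an accession. For breed 4 of these probes were called lower and 0 higher in limma, against 19.3% and 9.28% of all tested probes named by an accession. A negative breed effect was seen in 9 of the 11. NPPB, the brain natriuretic peptide, was 6.46 and 6.45 in TL, 9.50 and 9.39 in DH, and 9.15 and 9.19 in DL, and was not well above background on both TH arrays. CALCRL, the receptor of adrenomedullin, had 2 such probes, both called lower (-0.92 and -0.89), and RAMP2, its partner, was called lower at -0.39. Named only by the study's tables, and given as a description, were another CALCRL probe with an interaction of -3.32, a PTGS2 probe with an interaction of -4.31 and a KNG1 probe with a breed effect of 2.00. The PTGS2 probe named by an accession had an interaction of -0.45 that was not called. In the CALCRL probe with the interaction of -3.32, A_72_P209832, the Tibetan mean was above the Duroc mean, unlike in the called CALCRL probes. Its TL mean of 10.72 was above DH (8.66) and DL (8.29), while its TH mean of 7.77 was below both. In the further CALCRL probes A_72_P171581 and A_72_P219547, also a description, both Tibetan group means were below both Duroc group means.

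**Figure D4:**
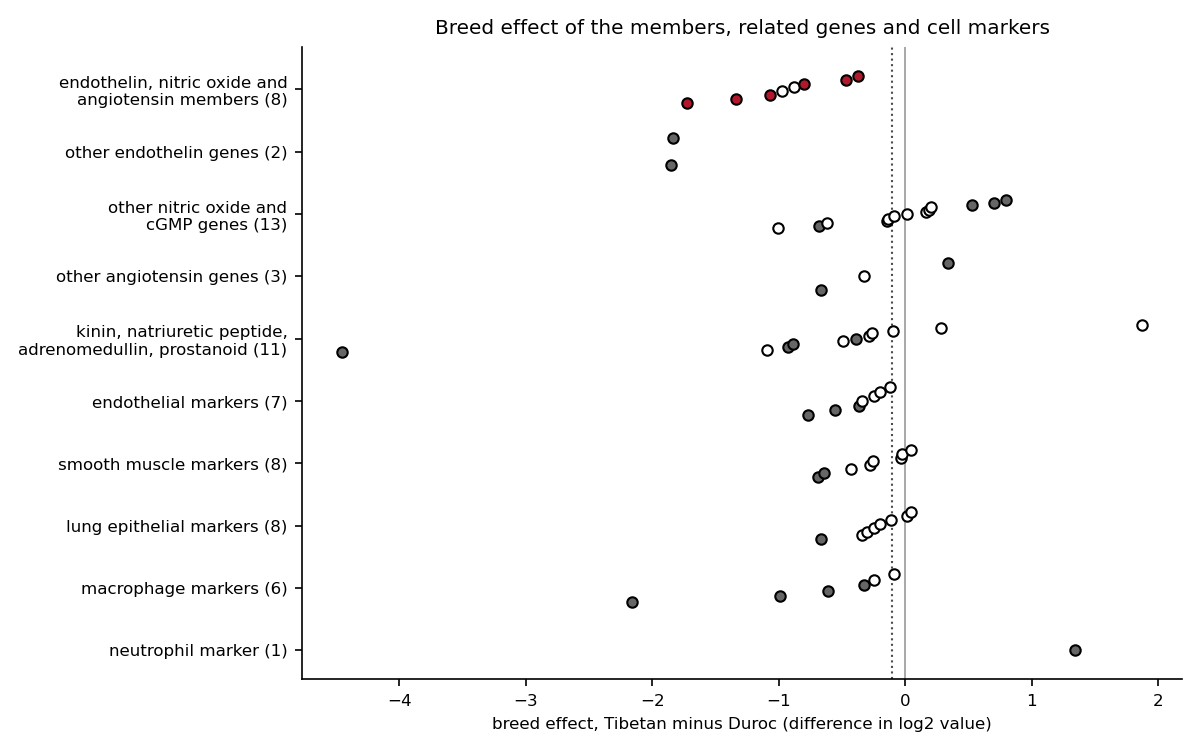
Breed effect (horizontal axis, Tibetan minus Duroc difference in log2 value) of the probes named by an accession, for the members, for related genes and for cell markers, with the number of probes in parentheses. Filled points were called at an FDR below 0.0001, open points were not, and the dotted line is the median of all tested probes named by an accession (-0.11). All 8 member probes lie below 0, as do all 7 probes of endothelial markers, all 6 of macrophage markers and the 2 of other endothelin genes.

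Markers of cell types moved with breed as well. Among all tested probes named by an accession 19.3% were called lower for breed and 9.28% higher. These shares are the background of the breed calls in every marker list below. All 7 accession-named probes of 5 endothelial markers had a negative breed effect and 3 were called lower, with CDH5, the vascular cadherin, at -0.77 and -0.36 and FLT1, a VEGF receptor, at -0.56. The mean of the 7 probes was 13.17 on both TH arrays, 13.03 on both TL arrays, 13.43 and 13.45 in DH, and 13.51 and 13.49 in DL. Its breed difference was -0.37, in the direction of the members and smaller than the breed effect of 7 of their 8 probes. Named only by the study's tables, and given as a description, were 8 further endothelial probes, of which 7 had a negative breed effect, with KDR at -0.66 and TIE1 at -0.79, and 1 TEK probe went the other way at 0.41, while the other 3 TEK probes were negative (-0.56 to -0.19). The interaction was 1.72 for the KDR probe and -1.02 for that TEK probe. NOS3 and ACE are themselves known from endothelial cells, and the part of endothelial content in the members' values was not tested.

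The smooth muscle markers had 8 such probes of 4 genes, of which DES (-0.69) and MYOCD (-0.65) were called lower, with a mean over the 8 probes of 12.81 to 12.83 in TH, 12.93 to 12.96 in TL, 13.04 to 13.06 in DH and 13.29 to 13.30 in DL. Another 7 smooth muscle probes were named only by the study's tables and are a description, and 3 of them, all of CALD1, had positive breed effects of 1.62 to 1.74. For these 3 probes TL stood far above the other groups, as in CALD1 A_72_P296229 with 6.00 and 6.12 in TH, 10.24 and 10.27 in TL, 6.56 and 6.51 in DH, and 6.25 and 6.36 in DL, and an interaction of -4.42. The remaining CALD1 probe went the other way, with a breed effect of -0.47, as did TAGLN (-0.23, with an altitude effect of 0.72) and MYLK A_72_P306084 (-0.27, with an interaction of 1.97).

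The lung epithelial markers had 8 probes of 7 genes, of which SFTPD was called lower for breed (-0.67), both CAV2 probes were called lower for altitude (-0.46 and -0.47), and SFTPA1 A_72_P035561 (-1.02) and SFTPB (-0.87) were called for the interaction. The surfactant genes SFTPA1, SFTPB and SFTPC were well above background on all 8 arrays, which bears out the labeled tissue. The macrophage markers had 6 probes of 3 genes, of which 4 were called lower, LYZ (-2.16), both CD14 probes (-0.99 and -0.61) and a CD163 probe (-0.33), and the interaction was -1.52 for CD163 A_72_P170001. CHIT1 (-1.78) and MRC1 (-1.0), named only by the study's tables, were lower as a description. The neutrophil marker PGLYRP1 was called higher for breed (1.34) with an interaction of 3.20. Its level was high in TH only (mean 14.54), while the TL mean of 10.89 lay below those of DL (11.15) and DH (11.60). The 2 erythroid markers, named only by the study's tables, were higher (HBB by 1.04 and AHSP by 1.16). The part of these cells in the members' values was not tested.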

How the data were processed

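RNA from the lungs of TH, TL, DH and DL pigs was measured on 8 1-color Agilent arrays, 2 per group. The authors extracted spot signals with Agilent Feature Extraction (version 10.7.3.1 per the file headers, 9.1 per the labels) and deposited the spot intensity and a table of log2 values, normalized by RMA according to the methods. On every array the deposited log2 values ranked the probes as the processed signal did (Spearman's rho at least 0.999996), with a common median of 7.40; the exact steps remain unknown.

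The deposited log2 values of 34406 of 43603 probes (well above background on at least 1 array) were fitted with limma 3.58.1 in R 4.3.3, with 4 residual degrees of freedom, moderated variances and Benjamini-Hochberg adjustment over all of them. The model was tested on simulated data. Symbols came from RefSeq accessions of the array design (2683 of 3250 matched) and from shortened tables of the study (3655 probes); where the sources overlapped (660 probes), 98.3% gave an identical symbol. The tables were used for symbols only. No genome build was used. Figures were drawn with matplotlib 3.10.9 in Python 3.11.15.

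The members, the lists and the tests were chosen with earlier results of these data known. Every member probe is named. Of each other list up to 4 genes with the largest called effect are named, further probes of these genes are given where they disagree, and others, such as RAMP2, FLT1, MYOCD, CD14 and SFTPC, were added after their values were seen. Member counts are over the 8 probes named by an accession. Measured list genes that are not named enter the counts, and 1 gene was left out of the lists and is not reported here. Replicate numbers did not pair the arrays. Alternatives were other scalings and background corrections of the scanner signals, other filters, no moderation, an intensity trend, other thresholds, a replicate block, and each array left out. A slide block was also fitted, but by the layout it could not change the breed and altitude effects. The number of arrays limits the precision.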

Additional observations from a re-analysis of the deposited data

Results flagged for a closer look

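For 3 member probes the altitude difference differed between the breeds, as tested by the interaction in limma. The interaction was 0.96 for EDN1 (adjusted p = 2.38e-05), where TH minus TL was 1.35 and DH minus DL was 0.39, and 1.80 for ACE (adjusted p = 8.31e-06), where TH minus TL was 1.77 and DH minus DL was -0.04. It was -0.56 for NOS3 A_72_P177526 (adjusted p = 7.67e-05), where TH minus TL was -0.08 and DH minus DL was 0.48, and 0.02 (adjusted p = 0.696) with scaling to the 75th percentile. The other NOS3 probe, A_72_P292224, had an interaction of opposite sign, 0.75, which was not called (adjusted p = 0.0152). The EDN1 call was lost with normexp and quantile normalization (adjusted p = 1.58e-04) and with the replicate block (adjusted p = 1.93e-04). With the replicate block the NOS3 A_72_P177526 call was lost too (adjusted p = 4.18e-04). Groups of 2 arrays allowed no search for single outlying arrays. The interaction cannot be told apart from a difference between the 2 slides or between moved and unmoved pigs.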

How the results depend on the processing

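Every accession-named member probe tested had a negative breed effect under every alternative tried, with 7 of the 8 tested where a signal well above background was required on all arrays, and EDN1, EDNRB A_72_P146416 and ACE were also called lower for breed under every alternative other than leaving out an array. Of the 8 probes 6 were called for breed, 4 for altitude and 3 for the interaction, and 4, 2, 3 and 5 for TH minus TL, DH minus DL, TH minus DH and TL minus DL. With the scanner signals under normexp and quantile normalization, 1 probe was called for the interaction, against 21.1% of all tested probes. For DH minus DL 0 were called in limma, against 3.07% of all tested probes. At an unadjusted p below 0.05 in this comparison were 6 of the 8 probes and 20579 of all 34406. Under this normalization the breed effects of EDNRA (adjusted p = 2.77e-04) and NOS3 A_72_P177526 (adjusted p = 3.33e-04) and the interaction of EDN1 (adjusted p = 1.58e-04) missed the threshold. Without a filter on dim probes 1 was called for DH minus DL. Without moderation 2 were called for altitude, 2 for TH minus TL and 0 for DH minus DL, against 15.3%, 25.3% and 2.7% of all tested probes. At an unadjusted p below 0.05 in the last of these were 7 of the 8 probes and 21309 of all 34406. With an intensity trend, and with probes well above background on all arrays, 6 were called for the interaction, against 39.7% and 49.1% of the probes tested. At an FDR below 0.01 the counts were 7 for altitude, 6 for the interaction and 6 for TH minus DH. The shares of all tested probes were 60.1%, 63.7% and 44.4%. At an FDR below 0.05 the member counts were 7 for altitude, 8 for the interaction, 7 for DH minus DL, 8 for TH minus DH and 8 for TL minus DL. There the shares of all tested probes were 70.8%, 73.7%, 60.2%, 58.9% and 77.4%. Of the 8 interactions 6 were positive and 2 negative.

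With the replicate number as a block, 3 were called for breed, 2 for altitude, 1 for the interaction, 2 for TH minus TL, 0 for DH minus DL, 0 for TH minus DH, 3 for TL minus DL and, within slides, 0 for TH minus DL and 3 for TL minus DH (against 3 and 4 without it); deviations of arrays with the same number correlated at -0.043 to 0.091, so the numbers did not pair the arrays. With this block 0, 208 and 247 of all 34406 tested probes were called for DH minus DL, TH minus DH and TH minus DL. Leaving out any 1 array left fewer of the 8 probes called in every comparison, and none for DH minus DL, TH minus DH and TH minus DL. In these fits the lone array of a group was assumed to vary like the others. Leaving out both TL arrays, chosen after seeing the data, gave 0 for DH minus DL, 0 for TH minus DH and 0 for TH minus DL. Of all tested probes 0, 228 and 269 were called there. At an unadjusted p below 0.05 were 7, 8 and 7 of the 8 probes, and 21353, 20969 and 21666 of all tested probes.

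Reversed under scaling to the 75th percentile were the interaction of NOS3 A_72_P177526 (0.0155), TH minus TL of NOS3 A_72_P177526 (0.59), AGTR1 (0.14) and EDNRB A_72_P117896 (-0.11), TH minus DL of NOS3 A_72_P292224 (0.11) and TL minus DH of EDNRA (0.19). TH minus TL of EDNRB A_72_P117896 was also reversed under normexp with quantile normalization (-0.13), with local background and an offset of 50 (-0.0181) and over the leave-one-out fits (-0.0278 without TL replicate 2 to 0.2021 without TL replicate 1), and TH minus DL of NOS3 A_72_P292224 without TH replicate 1 (0.0107) and without DL replicate 1 (0.0355, and -0.0840 without DL replicate 2). The causes were not tested. A call below 0.0001 with 2 arrays per group rests on a spread estimated from 4 residual degrees of freedom, and dim probes near the background had the widest intervals.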
